A study of Mus musculus with 9 samples.

Results

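Among 69547 long noncoding transcripts measured in mouse spinal cord, 32 had a level in injured cord that was at least 1.5-fold apart from both uninjured cord and injured cord given hyperbaric oxygen. They were chosen on measured values. The level of a transcript in a library was its count times 1000000 over the sum of the counts listed for that library (CPM). A transcript was taken as lower in injury when its lowest CPM among the control and hyperbaric oxygen libraries was at least 1.5 times its highest CPM among the injury libraries, with at least 10 counts in each of those 6 libraries. It was taken as higher in injury when its lowest injury CPM was at least 1.5 times the highest CPM elsewhere, with at least 10 counts in each of the 3 injury libraries. In all, 26 transcripts were lower and 6 were higher. Of 20465 transcripts with enough counts for either direction 0.156% met the rule, with 0.158% of 16494 for the lower and 0.0304% of 19719 for the higher direction.

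All animals were wild type C57BL/6 mice of 7 to 9 weeks, and spinal cord was sampled on day 7, with 3 libraries in each of 3 groups. The control group carried no injury per its labels, whereas the series' design text speaks of sham animals, so whether these animals were operated on is not settled. The injury group had spinal cord injury, and the HBO group had the injury and hyperbaric oxygen, in which animals breathe oxygen in a pressurised chamber. The segment of cord, the mode of injury and the pressure and schedule of oxygen were not stated in the labels. Nothing states that the libraries came from separate animals, so p-values reflect only library-to-library spread, which may be technical.

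Long noncoding RNAs are transcripts without a long open reading frame. Some act in the nucleus on chromatin or splicing, some are the host transcripts of microRNAs or small nucleolar RNAs, and others mark extended or alternative ends of messenger RNAs. Spinal cord injury kills neurons and oligodendrocytes at the lesion and brings in macrophages, reactive astrocytes and scar-forming fibroblasts. Tissue RNA follows that shift in cell makeup as well as changes inside cells. In these bulk samples, fewer cells of a type and less RNA per cell cannot be told apart.

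The sequences that bear most on the result are those that set a chosen transcript apart from other GENCODE transcripts of its own gene. Of the 4 chosen transcripts with an Ensembl identifier, those of A330023F24Rik (ENSMUST00000181947) and 9530026P05Rik (ENSMUST00000181121) each carry bases found in no other GENCODE M21 transcript of the gene, by comparison of all 25-base stretches. Each line below gives 120 bases of the transcript, 5′ to 3′, across the start of the longest run of its own bases, with the bases of that run in capitals. The stretch is positions 1581 to 1700 of 4632 for A330023F24Rik and positions 600 to 719 of 2142 for 9530026P05Rik.
A330023F24Rik: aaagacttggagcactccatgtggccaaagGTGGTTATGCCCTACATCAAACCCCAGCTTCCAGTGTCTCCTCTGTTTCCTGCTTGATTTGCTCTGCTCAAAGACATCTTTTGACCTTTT
9530026P05Rik: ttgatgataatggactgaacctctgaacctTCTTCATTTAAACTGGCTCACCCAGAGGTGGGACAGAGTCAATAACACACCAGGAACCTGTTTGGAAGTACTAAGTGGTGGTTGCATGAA

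In the A330023F24Rik transcript, 3461 bases belonged to no other GENCODE transcript of the gene and 25.3% of the transcript was shared. In that of 9530026P05Rik, 439 bases were its own by the same comparison and 79.5% was shared. Listed NONCODE transcripts that overlap these 2 members were not compared. Whether the bases in capitals set the members apart in the counts was therefore not tested. Of the other Ensembl members, Gm26881 (ENSMUST00000180426) was shared over 100% of its length and Gm42671 (ENSMUST00000198013) was the single GENCODE transcript of its gene. The gene A330023F24Rik also holds the hairpins of 2 microRNAs of the miR-29 family, which lie downstream of the end of the chosen transcript, by 9662 bp for miR-29b-3p and 10171 bp for miR-29c-3p. Their mature sequences from RefSeq (GRCm38.p6) are given because this family is the locus's best known product. The capitals mark the seed, bases 2 to 8, which both share.
miR-29b-3p: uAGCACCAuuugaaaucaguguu
miR-29c-3p: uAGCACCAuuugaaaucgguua

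Mature microRNAs were not measured by these counts, and no level of miR-29 is reported. Of the remaining members, 28 carry NONCODE identifiers and are given by identifier and place in the GENCODE M21 annotation, some with their position (GRCm38).

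The largest separation was at Ide, which encodes the insulin-degrading enzyme, a metalloprotease that also cleaves amyloid beta peptide. The transcript there, NONMMUT034612.2 (chr19:37268974-37270710), overlaps the 3′ untranslated region of Ide and no coding sequence of that gene. Its CPM was 80.1, 121 and 101 in control replicates 1, 2 and 3, 3.81, 4.09 and 3.25 in injury and 123, 119 and 108 in HBO. No injury library came near the others, and the lowest control library was 19.6 times the highest injury library. The mean was 101 ± 20.5 CPM in control, 3.72 ± 0.425 in injury and 117 ± 7.38 in HBO (SD, n = 3 each), so HBO was 31.4 times injury. The injury values rest on 9 to 12 counts a library. The other listed transcript at Ide was at 2.01 ± 1.28 CPM (control), 1.47 ± 0.405 in injury and 1.19 ± 0.107 in HBO, where the groups overlapped. Whether NONMMUT034612.2 shares reads with the Ide messenger RNA was not tested.

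Other members lower in injury also lay on coding exons, 6 of 26 in all. Of these, 3 overlapped 3′ untranslated sequence and no coding or 5′ untranslated sequence. Positions were read by overlap, without a check that a transcript lies wholly within a region. NONMMUT053385.2 (chr5:102908986-102912314) lies on the 3′ untranslated region of Mapk10, the gene of JNK3, a stress-activated kinase found mainly in neurons. It had 44.8, 332 and 328 CPM in control, 17.1, 13.3 and 19.5 in injury and 229, 144 and 37.0 CPM in HBO. Injury was low and even, whereas control and HBO each held a library several times below the others. This transcript had the highest level per length of the lower members in control, at a mean of 13.6 FPKM (fragments scaled by transcript length and library total).

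NONMMUT007529.2 (chr10:117354206-117355706) lies on the 3′ untranslated region of Cpsf6, which encodes a subunit of the cleavage factor that sets where messenger RNAs end. It had 27.0, 19.02 and 45.7 CPM in control, 0.635, 3.75 and 12.7 in injury and 65.9, 38.1 and 64.0 CPM in HBO. Its injury libraries spread widely, and injury replicate 3 left it just inside the threshold at 1.503 times. NONMMUT069564.2 (chr9:64706125-64707794) lies on coding and 3′ untranslated sequence of Megf11, a cell-surface protein that spaces retinal neurons in mice. Its CPM was 20.5, 20.3 and 15.3 in control, 0.635, 1.36 and 1.08 in injury and 4.02, 10.1 and 25.7 in HBO. HBO replicates 1 and 2 lay below every control library and HBO replicate 3 above them all. NONMMUT004521.2 (chr10:6905124-6911052) overlaps Oprm1, the mu-opioid receptor gene, and Ipcef1. It was at 8.05 ± 0.762 CPM in control, 3.49 ± 0.598 in injury and 8.71 ± 1.16 in HBO (SD, n = 3).

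ENSMUST00000181121 of 9530026P05Rik (chr6:92940369-93272889) runs against the strand of Adamts9, the gene of a secreted proteoglycan-cleaving protease, and overlaps coding and 5′ untranslated sequence of that gene. It had 7.97, 7.78 and 8.36 CPM in control, 0.635, 1.70 and 3.25 in injury and 9.51, 7.77 and 8.28 CPM in HBO. Control and HBO were even and overlapped each other, and the lowest of them was 2.39 times the highest injury library.

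Some members lay inside noncoding genes that are known as hosts of small RNAs. ENSMUST00000181947 of A330023F24Rik (chr1:194976385-195027428) had 18.2, 144 and 9.06 CPM in control, 2.86, 3.07 and 0 in injury and 20.9, 96.4 and 13.9 CPM in HBO. Replicate 2 was far above the other replicates in both control and HBO, and the smallest gap to injury was 2.95 times. NONMMUT061625.2 (chr7:59667720-59686523) lies inside Snhg14, the long paternally expressed host of small nucleolar RNA clusters that runs against Ube3a. It had 5.32, 58.8 and 7.67 CPM in control, 0, 0 and 0.723 in injury and 11.0, 12.8 and 4.79 CPM in HBO. Control replicate 2 was again the highest library, and injury held 2 counts in all. The means with HBO set against control were 9.53 ± 4.21 and 23.9 ± 30.2 CPM (SD, n = 3).

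Of the other lower members inside annotated noncoding genes, NONMMUT021390.2 (Gm31107, 37582 bp from Nefm, a neurofilament subunit gene) had 23.5 ± 2.62 CPM in control, 4.28 ± 3.73 in injury and 15.8 ± 3.69 in HBO. NONMMUT063537.2 (Gm45846 and Gm45847) had 33.2 ± 15.3, 9.996 ± 5.36 and 31.8 ± 7.16 CPM in the same order. NONMMUT087043.1 lies in Gm47431 and NONMMUT016965.2 in Gm36500, 2335 bp from the tubulin gene Tubb2b, and their gaps were 1.53 times each.

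Of the lower members, 10 lay outside every GENCODE coding gene and long noncoding gene, and their level was low. Other GENCODE gene types, such as pseudogenes, were not looked at. NONMMUT100183.1 (chr16:75184085-75188832) had 14.4, 19.9 and 16.7 CPM in control, 0 counts in all 3 injury libraries, and 6.59, 5.83 and 9.58 CPM in HBO. Against 3 counts over the injury group as a floor, control was at least 50.2-fold higher and HBO at least 21.6-fold higher, which covers counting error only. Every HBO library lay below every control library, so the HBO level was between those of the other groups. NONMMUT100237.1 (chr16:75303799-75308107) is on the same chromosome, and Lipi is the nearest coding gene to both. It had 8.35, 8.21 and 9.76 CPM in control, 2.54, 0 and 0 in injury and 10.6, 5.83 and 9.15 CPM in HBO. Here control and HBO overlapped.

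NONMMUT029861.2 (chr17:46882488-46884583), 6100 bp from the tubulin-folding cofactor gene Tbcc, had 17.8, 11.7 and 11.8 CPM in control, 1.91, 2.38 and 0 in injury and 13.5, 10.1 and 13.5 CPM in HBO. Its control and HBO libraries were even and at least 4.24 times injury. NONMMUT101831.1 on chromosome 17 had 5.15 ± 0.940 CPM in control, 0.983 ± 0.815 in injury and 6.12 ± 1.61 in HBO (SD, n = 3). NONMMUT075209.1 on chromosome 1 had 10.3 ± 4.48, 1.64 ± 1.42 and 6.89 ± 1.42 CPM. The gaps of the other members outside coding and long noncoding genes were under 2. These were NONMMUT082250.1, NONMMUT137060.1, NONMMUT121913.1, NONMMUT114447.1 and NONMMUT118894.1.

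In the introns of coding genes, 4 members were lower in injury. NONMMUT098548.1 and NONMMUT098564.1 lie in Lsamp, which encodes a neuronal cell adhesion protein. NONMMUT098548.1 was at 6.68 ± 0.351 CPM in control, 3.15 ± 0.719 in injury and 7.55 ± 1.35 in HBO, and NONMMUT098564.1 at 10.7 ± 2.88, 2.14 ± 0.298 and 7.26 ± 5.41 (SD, n = 3). NONMMUT009501.2 lies in Sgcd, a sarcoglycan gene, and NONMMUT051323.2 in Sema3c, the gene of a secreted axon guidance protein. NONMMUT051323.2 was among the transcripts just inside the threshold, at 1.52 times, while the closest below it were NONMMUT032125.2 at 1.45 and NONMMUT021833.2 at 1.46 times.

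**Figure D1:**
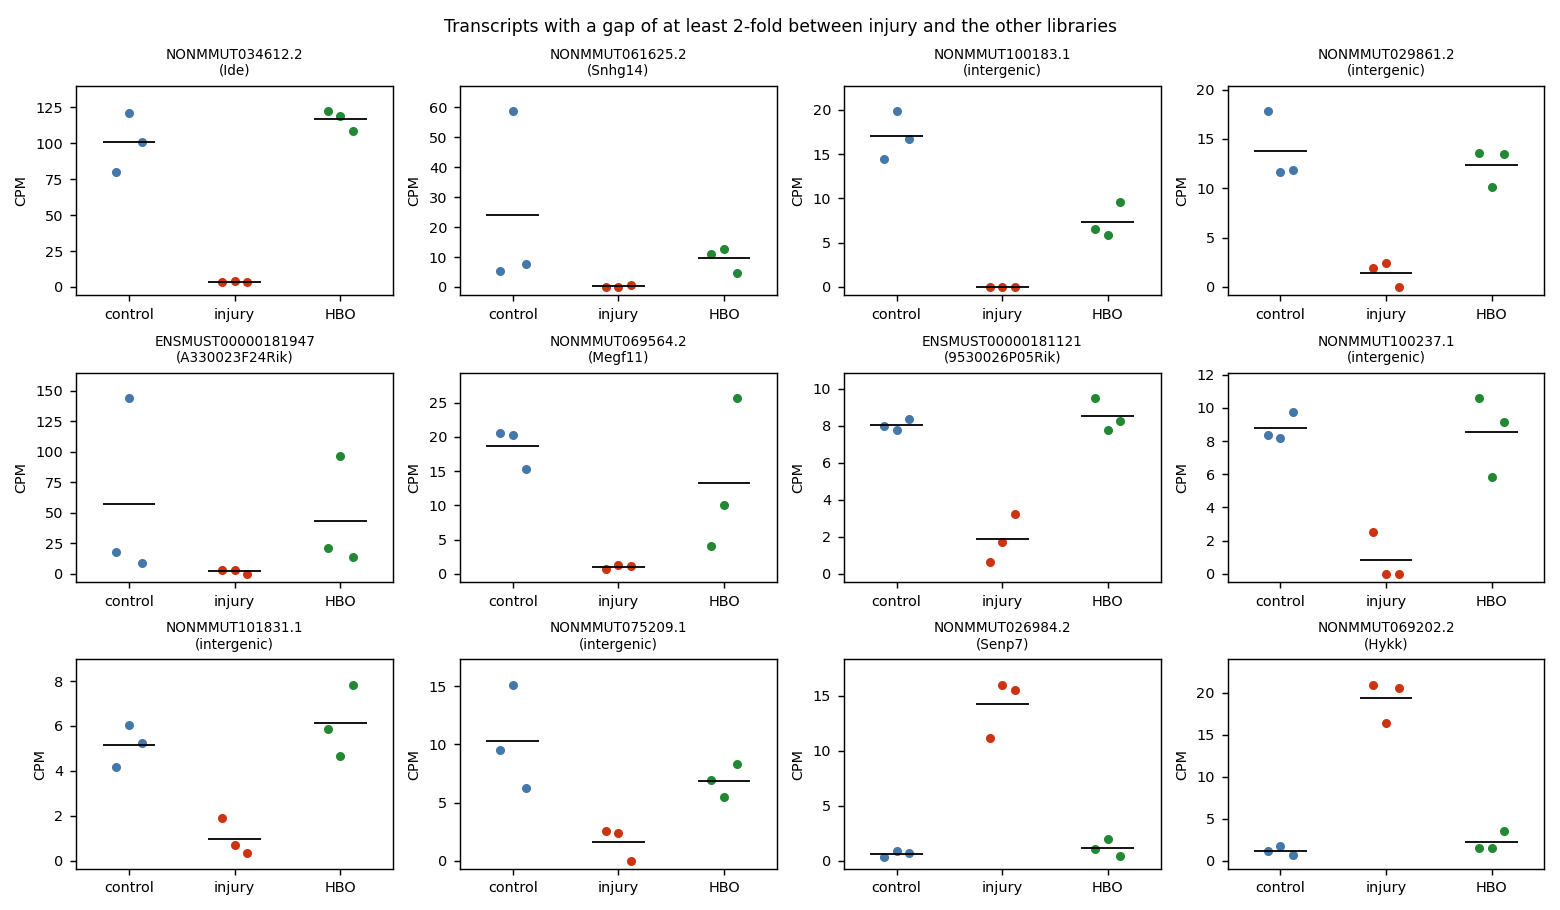
CPM (vertical axis of each panel, own scale) in each library of the 12 chosen transcripts whose gap between injury and the other libraries was at least 2-fold; points are libraries, drawn from replicate 1 at the left to replicate 3, and black lines are group means. Of these, 10 are low and 2 are high in injury; A330023F24Rik and the Snhg14 transcript have their highest control library in replicate 2.

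Of the 6 members higher in injury, 4 lay on coding exons, and the 2 of these on 3′ untranslated regions had the widest gaps. NONMMUT026984.2 (chr16:56189226-56190004) lies on that of Senp7, a protease that removes SUMO chains. It had 0.380, 0.865 and 0.697 CPM in control, 11.1, 16.0 and 15.5 in injury and 1.10, 1.94 and 0.436 CPM in HBO. The lowest injury library was 5.72 times the highest other library, and control and HBO overlapped. NONMMUT069202.2 (chr9:54947749-54949913) lies on the 3′ untranslated region of Hykk, the gene of hydroxylysine kinase, an enzyme of lysine breakdown. It had 1.14, 1.73 and 0.697 CPM in control, 20.96, 16.4 and 20.6 in injury and 1.46, 1.55 and 3.49 CPM in HBO. Injury was again even, at 4.69 times or more of every other library.

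NONMMUT012611.2 (chr11:113043884-113201821), in the noncoding gene 2610035D17Rik, had 0.380, 0.432 and 2.09 CPM in control, 4.13, 19.1 and 22.8 in injury and 0.366, 0.389 and 0.436 CPM in HBO. Injury replicate 1 stood well below the other injury libraries and set its gap of 1.97 times. Gm42671 (chr3:95588971-95590574) overlaps coding sequence of Golph3l, a Golgi protein gene. It was at 2.58 ± 0.394 CPM in control, 5.76 ± 0.356 in injury and 2.51 ± 0.278 in HBO (SD, n = 3). Gm26881 (chr4:43046034-43053253), opposite the 5′ end of Fam214b, had 0.763 ± 0.344, 4.37 ± 0.924 and 1.43 ± 0.786 CPM. NONMMUT034658.2, in an intron of Plce1, a phospholipase C gene, had 11.7 ± 3.40, 28.1 ± 4.20 and 15.7 ± 1.58 CPM. Its gap of 1.52 times and that of 1.55 for Gm26881 were just inside the threshold, and NONMMUT008425.2 at 1.46 and NONMMUT104908.1 at 1.38 were just outside.

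The gaps were narrow for most members. Over the 32, the median gap was 1.79 times, with 12 members at 2 or more and 6 at 3 or more. In the library on the high side that set the gap, 19 members had fewer than 20 counts. The exact Poisson 95% intervals of the counts in the libraries that set the gap overlapped for 25 members and were apart for 7, which were the transcripts at Ide, Mapk10, Senp7, Hykk and A330023F24Rik, NONMMUT100183.1 and NONMMUT029861.2. Among the lower members, 10 had 0 counts in at least 1 injury library. The gap was set by an HBO library in 17 of the 26, of which 11 by HBO replicate 2, and by a control library in 9.

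**Figure D2:**
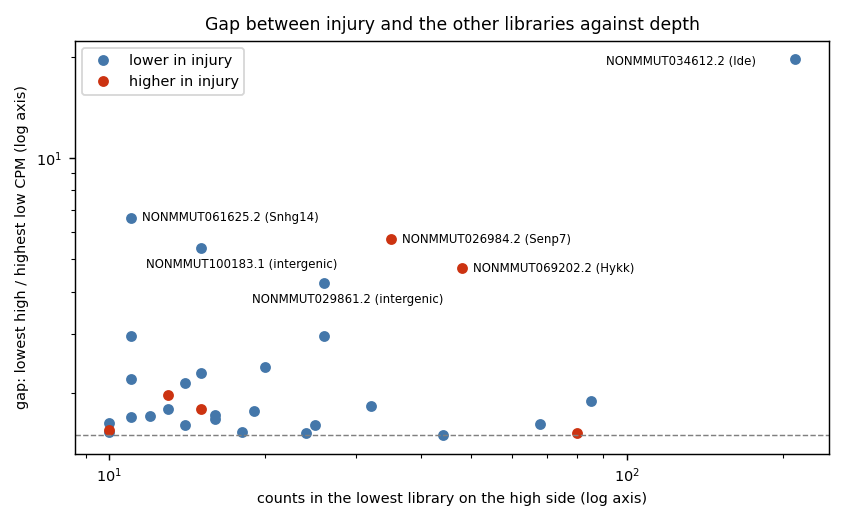
For each of the 32 transcripts, the count in the library on the high side that set the gap (horizontal, log axis) and the gap, the lowest CPM on the high side over the highest on the low side (vertical, log axis); the dashed line is the 1.5-fold threshold. Most points lie near the threshold at fewer than 20 counts, and NONMMUT034612.2 at Ide lies alone at 19.6 times and 211 counts.

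The members' positions were set beside those of all transcripts with enough counts. Of the 32, 17 (53.1%) lay outside coding genes, 10 (31.3%) touched a coding exon and 5 (15.6%) lay in coding introns, beside 28.0%, 25.3% and 46.6% of the 20465. Spliced transcripts made up 31.3% of members and 16.4% of the 20465. The median length was 2198 and 2221 bases, and the median of the mean level was 6.72 and 15.1 CPM. These shares are given as a description without a test.

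To see how often the rule finds such transcripts for other library sets, it was applied to every set of 3 of the 9 libraries. The 81 sets that mix groups gave a median of 18 transcripts, between 8 and 118, and 13 of them gave 32 or more. Among those, the 27 sets with 1 library of each group gave 8 to 26, with a median of 14. The 54 sets with 2 libraries of a group and 1 of another gave 10 to 118, with a median of 21.5. The highest number came from injury replicates 1 and 2 with HBO replicate 2. In the lower direction, 5 mixed sets gave 26 or more, and in the higher direction 71 gave 6 or more. The 3 HBO libraries set against the others gave 27 transcripts and the 3 control libraries 801. The number for injury was therefore within the range of the mixed sets, and the count of 6 in the higher direction was below their median of 9. The 13 mixed sets with 32 or more each held either 2 control libraries or no control library, and no set with 1 control library reached 32. The injury set also holds no control library, so it splits control unevenly from the injured groups as they do. Mixed sets without a control library gave 17 (injury replicates 2 and 3 with HBO replicate 1) to 118 transcripts. The 32 of the injury set lie within that range.

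**Figure D3:**
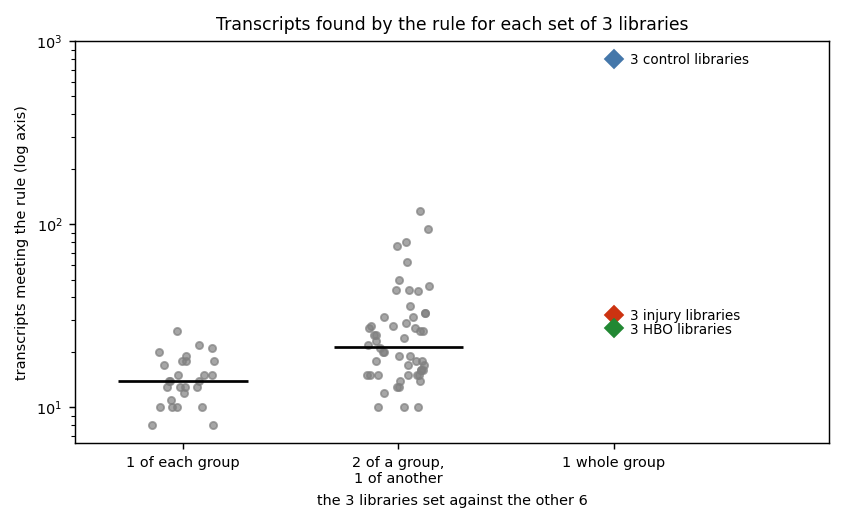
Number of transcripts that meet the rule (vertical, log axis) when each possible set of 3 libraries is set against the other 6; grey points are mixed sets with their median as a line, and diamonds are the 3 whole groups. The injury set, at 32, lies above all 27 sets with 1 library of each group and within the range of the sets with 2 libraries of a group. Those 27 sets each hold 1 control library, whereas the injury set holds none. Mixed sets without a control library reach 118.

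HBO against control was the contrast that the rule used least, since both groups stand on the same side of it. It was not free of the rule, because a transcript whose HBO level lay near that of injury could not be chosen. The counts below describe the chosen transcripts, and nothing particular to them is read from a comparison with all transcripts. By the quasi-likelihood test of edgeR, adjusted by Benjamini and Hochberg over 26850 transcripts, 0 of 31 members tested passed an adjusted p under 0.05, 2 (6.45%) passed at an unadjusted p under 0.05, while DESeq2 called 0 of the 28 to which it gave an adjusted p. Over all transcripts tested, 1084 passed, or 4.04%, with 25.7% at an unadjusted p under 0.05 and 7.54% called by DESeq2. Gm26881 had too few counts to be tested. The closest member was NONMMUT100183.1, with a log2 change of -1.17 (SE 0.28, adjusted p = 0.0619, edgeR). NONMMUT034658.2 in Plce1 followed, with a log2 change of 0.49 (SE 0.21, adjusted p = 0.179, edgeR). The standard errors ran from 0.19 at Ide to 1.10 for NONMMUT012611.2 in 2610035D17Rik, so for many members a difference of 2-fold between HBO and control was not detectable with these libraries. The absence of a call does not show that HBO was at the control level.

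By group means, the HBO level was within 1.5-fold of control in 23 of 32 members. The rule places both groups on the same side of injury, and the share over all transcripts was not taken. The number is therefore a description and no result about the members. The ratio of HBO to control had a median of 0.965, from 0.398 for the Snhg14 transcript to 1.88 for Gm26881. HBO was above control in 14 members and below in 18. The HBO and control libraries did not overlap in 4 members, of which NONMMUT082250.1 was higher in HBO and NONMMUT100183.1, NONMMUT021390.2 and NONMMUT121913.1 were lower, beside 32.7% of all transcripts with enough counts. Of the 6 members higher in injury, HBO was within 1.5-fold of control in 2.

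**Figure D4:**
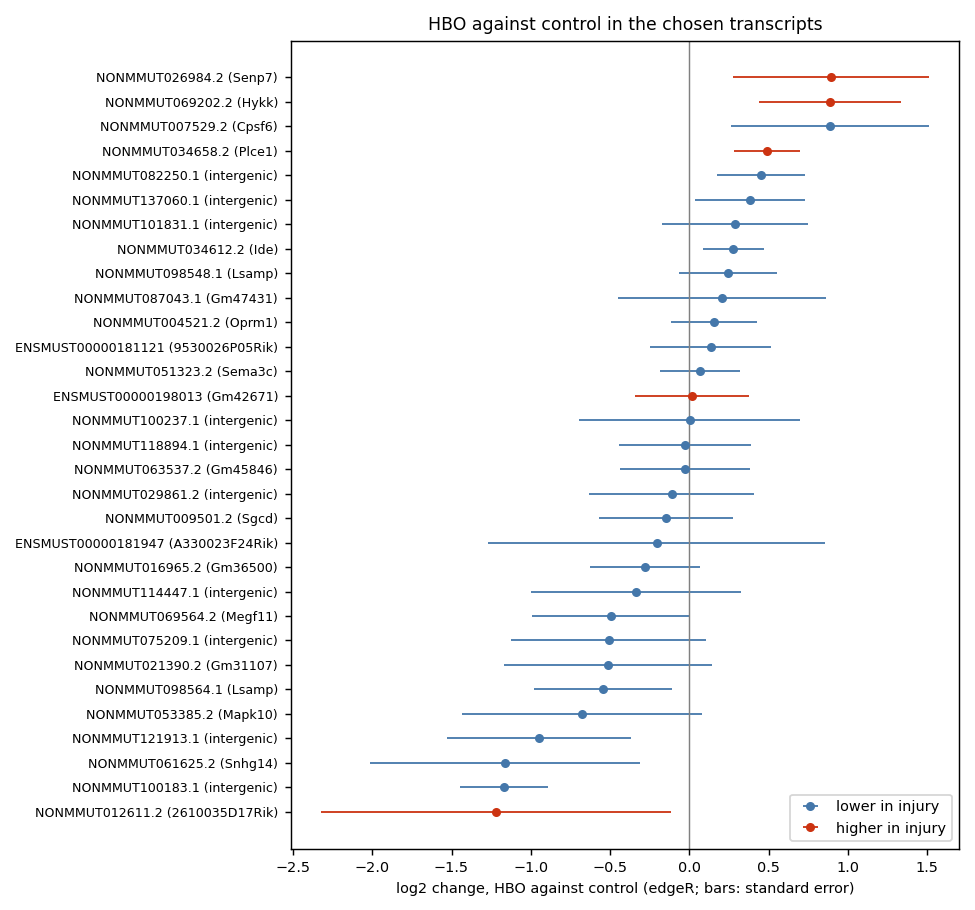
Log2 change of HBO against control with its standard error (horizontal) for the 31 chosen transcripts that edgeR tested, ordered by size and named by identifier and gene. The values lie on both sides of 0, from -1.22 for NONMMUT012611.2 to 0.89 for NONMMUT026984.2, and none passed an adjusted p under 0.05.

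The contrasts that the rule used are given for completeness and nothing is read from them. In injury against control, edgeR called 12 of 31 members, 8 lower and 4 higher in injury, beside 5.68% of all transcripts. In HBO against injury it called 3, beside 0.0149%, and in injury against the mean of control and HBO it called 4, beside 0.0447%. The members called in injury against that mean were the transcripts at Ide, Hykk and Senp7 and NONMMUT100183.1.

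Other transcripts at the members' loci were not used by the rule. Spans of 88 listed transcripts that are not members overlapped 16 of the members, without regard to strand. Of 48 tested, edgeR called 0 in injury against the mean of control and HBO at an adjusted p under 0.05, 7 (14.6%) passed at an unadjusted p under 0.05, while DESeq2 called 0 of 38. Over all transcripts these shares were 0.0447%, 13.8% and 0.953%, so the overlapping transcripts were near the background and the absence of calls is what it gives. Of these 48, 23 had a change of the same sign as the member they overlap. Summed over the other transcripts of a locus, a readout added after the data were seen, injury was apart from both other groups at none of the 16 loci. It was below every control library at 3 of them, A330023F24Rik and the loci of NONMMUT061625.2 and NONMMUT063537.2, where it overlapped HBO. It was above every HBO library at 1, that of NONMMUT029861.2, where it overlapped control. When the member was added to that sum, the rule was still met at 2 loci, those of NONMMUT114447.1 and NONMMUT118894.1.

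At A330023F24Rik, the 19 other overlapping transcripts summed to 672 ± 97.6 CPM in control, 501 ± 41.1 in injury and 440.4 ± 31.4 in HBO (SD, n = 3). The chosen transcript made up 7.20% of the locus in control, 0.405% in injury and 8.66% in HBO. At 9530026P05Rik, the 14 others summed to 82.2 ± 5.41, 87.5 ± 9.15 and 86.9 ± 10.4 CPM, and the member made up 8.94%, 2.0% and 8.99% of the locus. Around NONMMUT061625.2 in Snhg14, the 14 others summed to 396 ± 30.6 CPM in control, 212 ± 47.4 in injury and 206 ± 34.7 in HBO. The sum at Snhg14 was thus low in both injured groups. The member was lowest in injury, and its HBO mean was also below control, at 0.398 of it. Its control mean rests largely on replicate 2, and its HBO and control libraries overlapped.

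NONMMUT029861.2 was overlapped by 6 others, at 66.4 ± 16.7, 83.4 ± 9.76 and 56.0 ± 14.2 CPM. In 2610035D17Rik, the 8 others summed to 105 ± 16.4 CPM in control, 110.1 ± 10.2 in injury and 99.9 ± 14.4 in HBO, and NONMMUT012611.2 made up 0.979%, 12.1% and 0.405% of the locus. How the counting program divided reads among overlapping transcripts is not stated in the labels, and its part in these shares was not tested.

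**Figure D5:**
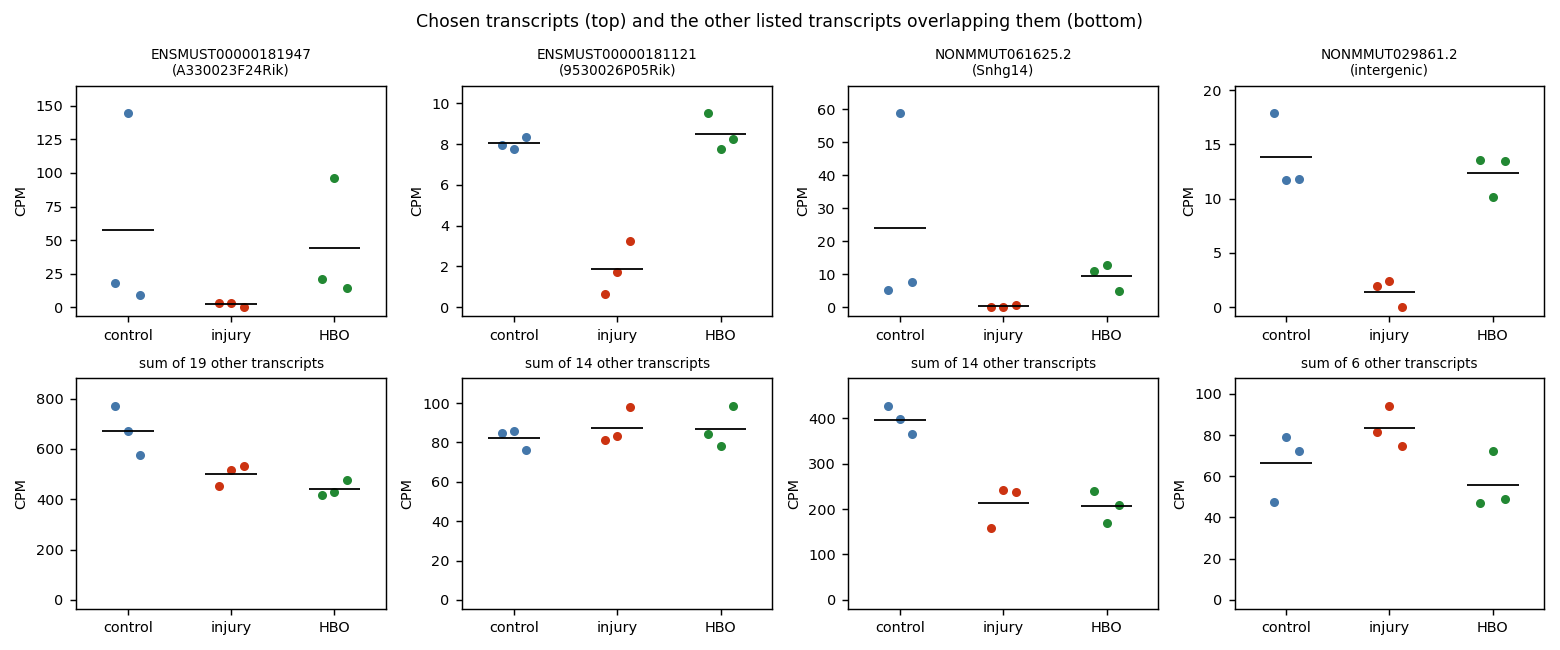
CPM per library of 4 chosen transcripts (top row) and the sum of the other listed transcripts that overlap each (bottom row); points are libraries, drawn from replicate 1 at the left to replicate 3, and black lines are group means. The top panels are low in injury, while in the bottom panels the injury libraries overlap the control or HBO libraries.

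The coding genes that hold members were read in the same way, likewise added afterwards. Of 15 such genes, 13 had other listed transcripts, and the summed level of these in injury overlapped HBO in all 13. It overlapped control in 7 and lay apart from control in the other 6, below it at Lsamp, Megf11, Oprm1 and Mapk10 and above it at Plce1 and Adamts9. Of 345 other transcripts tested at these genes, edgeR called 0 in injury against the mean of control and HBO, 101 (29.3%) passed at an unadjusted p under 0.05, while DESeq2 called 0 of 300. At the background of 0.0447%, no call in 345 is no result about these genes, and the unadjusted share over all transcripts was 13.8%. Injury against the mean of control and HBO can also pass where injury and HBO are alike and only control differs. At Lsamp, 92 of 308 passed in it at an unadjusted p under 0.05 (edgeR). In HBO against injury 10 of them passed, beside 977 of all 26850. Lsamp supplied 308 of the 345. Its 337 other transcripts summed to 12883, 13903 and 11115 CPM in control, 4715, 6748 and 7328 in injury and 7332, 5641 and 9519 CPM in HBO. HBO was thus below control in every library there, and edgeR called 49 Lsamp transcripts in injury against control, all lower in injury, and 18 in HBO against control, all lower in HBO.

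Other transcripts of Megf11 summed to 379 ± 39.6 CPM in control, 200 ± 34.4 in injury and 229 ± 22.7 in HBO. Those of Oprm1 summed to 170 ± 13.6, 94.7 ± 37.0 and 97.0 ± 29.1 CPM, and those of Mapk10 to 203 ± 31.2, 125 ± 23.1 and 158 ± 31.7 CPM. For Plce1, which holds a member higher in injury, the others summed to 41.2 ± 9.44 CPM in control, 70.9 ± 12.2 in injury and 73.5 ± 7.66 in HBO. At Megf11, Oprm1 and Plce1, the HBO mean of the other transcripts was near that of injury.

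Across 13 lists of pathway and cell type genes with 191 genes, 135 had a listed noncoding transcript in or across them, 1092 transcripts in all. One was a member, the Snhg14 transcript in the list of known long noncoding RNAs. The lists of hypoxia response, antioxidant enzymes, inflammation, apoptosis, autophagy, neuron, myelin, astrocyte, microglia, fibroblast, endothelium and axon growth genes held no member among 364 transcripts with enough counts. At the overall share of 0.156% this is near the background and no result about those pathways. Of the 714 other transcripts tested in the lists, edgeR called 0 in injury against the mean of control and HBO, 166 (23.2%) passed at an unadjusted p under 0.05, while DESeq2 called 11 of 618 (1.78%), beside 0.0447%, 13.8% and 0.953% over all transcripts. A transcript can pass there when injury and HBO are alike and only control differs. These shares therefore do not measure injury apart from both other groups. In HBO against injury, edgeR called 0 list transcripts, beside 0.0149% of all.

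Noncoding transcripts at cell type marker genes differed between groups for some cell types. Summed over neuronal markers, of which 4 of 5 had a transcript, the level was 667 to 737 CPM in control, 242 to 382 in injury and 269 to 371 in HBO. Over fibroblast markers, all 5 with a transcript, it was 9.51 to 79.1 CPM in control, 198 to 673 in injury and 965 to 1938 in HBO. The astrocyte markers ran from 127 to 163 CPM in control, 194 to 266 in injury and 217 to 243 in HBO, and the macrophage markers from 70.0 to 73.3, 81.4 to 138 and 75.4 to 87.1 CPM. Oligodendrocyte markers overlapped between all groups, at 878 to 1271, 707 to 1010 and 908 to 1113 CPM. Endothelial markers did so as well, at 5.58 to 73.3, 7.23 to 18.7 and 5.66 to 73.2 CPM. The same held for Schwann cell markers, at 0.697 to 2.28, 2.17 to 2.38 and 2.18 to 4.76 CPM. In none of these sums was injury below both or above both of the other groups in every library. The part of cell makeup in the members' levels was not tested.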

How the data were processed

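RNA of 9 libraries was read as a deposited table of long noncoding transcripts. Per the file headers, the authors gave each transcript a count and an FPKM value per library. The counts are whole numbers without normalization, and the authors scaled FPKM by length and by a library total, as the deposited values show. HISAT2 and GRCm38 are named by the submitters' processing notes. How reads were counted, by strand or when shared, is not given in the sources used. Listed totals ran from 2295433 (HBO replicate 3) to 3148744 (injury replicate 1), or 17.1% to 19.5% of totals recovered from FPKM, and 10 counts correspond to 3.18 to 4.36 CPM.

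CPM was computed on the listed totals and the rule was applied per transcript (Python 3.11.15, pandas 2.3.3). A model of the 3 groups over all 9 libraries was fitted in edgeR 4.0.16 under R 4.3.3 (TMM scaling, filterByExpr at 10 counts, glmQLFit, glmQLFTest), with Benjamini-Hochberg adjustment over 26850 transcripts. Standard errors come from the test statistic. DESeq2 1.42.0 was an alternative. The fit was tested on simulated counts. Positions were set beside GENCODE M21 with bedtools 2.31.1, where start and end were identical for 97.1% of matched Ensembl transcripts. Intervals and floors cover counting error only.

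Members with a gene name, the 8 in each direction with the largest gap, the 4 with the highest level on the high side and those nearest the threshold were given with values, and the rest by place. The members and lists were chosen with earlier results of these data known. Replicates differed from each other by more than sampling noise, with chi-square over its degrees of freedom at 6.54 to 17.7.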

Additional observations from a re-analysis of the deposited data

How the results depend on the processing

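The 32 members became 82 at the looser fold threshold tried and 12 at 2-fold, and 64 with a minimum of 5 counts and 12 with 20. TMM library sizes gave 26 (23 shared with the 32), totals from FPKM 31 (29 shared) and sums per gene name 30. By direction, the 26 lower and 6 higher members became 18 and 8 with TMM sizes. Totals from FPKM gave 24 lower and 7 higher, and sums per gene name 24 and 6. Without 1 library the number was 41 to 160, the highest without injury replicate 3; a rule on fewer libraries is easier to meet. Leaving out injury replicate 1 gave 108 and injury replicate 2 gave 135, while HBO replicate 1 gave 60, HBO replicate 2 gave 130 and HBO replicate 3 gave 62. Members kept at 2-fold, at 20 counts, with TMM sizes and with FPKM totals were 5: NONMMUT034612.2, NONMMUT029861.2, that of A330023F24Rik, NONMMUT026984.2 and NONMMUT069202.2.

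For HBO against control over all transcripts, the 1084 calls became 159 without the count filter, 296 on control and HBO libraries alone, 1699 with DESeq2 and 20 to 940 without 1 library (for control replicates 1 to 3 left out singly, 20, 21 and 254; for injury replicate 2, 128, and replicate 3, 291; for HBO replicates 1 to 3, 639, 63 and 275). With a replicate block the number was 10. Same-numbered libraries showed no shared deviation (0 of 9 pairs had a correlation over 0.1, and 1 matched best). With 3 libraries a group, this cannot exclude a pairing by number. The members called were 0 in every setting run, which at these counts does not show equal levels. Among other transcripts overlapping members, the calls in injury against the mean of control and HBO were 0 to 1 without 1 library and 0 in the other settings. The 1 call came without injury replicate 3 and was NONMMUT029850.2 (log2 change 6.07, adjusted p = 0.0151, edgeR), which overlaps NONMMUT029861.2. The causes of these changes were not tested. Many members rest on few counts, and reads on coding exons may belong to messenger RNA.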
